A study of Mus musculus with 10 samples.

Results

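The 10 endothelial BMP (bone morphogenetic protein) signaling genes described here are the ligands *Bmp2*, *Bmp4*, *Bmp6* and *Gdf10*, the receptors *Eng* and *Acvrl1*, the inhibitory SMADs *Smad6* and *Smad7*, and the target genes *Id1* and *Id3*. They were listed by name, with earlier results of these data known, and all 10 were found among the 46517 Ensembl genes of the count tables. BMP ligands are secreted dimers that bring together type I and type II receptor kinases, which phosphorylate SMAD1, SMAD5 and SMAD9, and these enter the nucleus with SMAD4 to switch on genes such as *Id1* and *Id3*. In endothelium the type I receptor ALK1, the product of *Acvrl1*, works with the co-receptor endoglin, the product of *Eng*, and loss of either one causes hereditary hemorrhagic telangiectasia, a disease of enlarged and fragile blood vessels. SMAD6 and SMAD7 are induced by the pathway and dampen it, and the ID proteins bind basic helix-loop-helix transcription factors and keep them off DNA.

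Dermal endothelial cells (ECs) had been sorted for CD31 and Podoplanin from the ear skin of 5-wk-old mice, and each cell was sequenced by Smart-seq2, which reads whole transcripts and carries no molecular barcodes. The question behind the comparison was how lymphatic ECs (LECs) and blood ECs (BECs) of the skin respond to an oncogenic form of the PI3K catalytic subunit. The 5 mutant mice were Pik3caH1047R;Cdh5-CreERT2, Cre+, and received 4-OHT on the ear at 3 wk of age, so that Cre, driven in ECs by the *Cdh5* promoter, switched on a transgene that encodes chicken *Pik3ca*. Control 1 was of strain C57BL/6J and received no treatment, and control 2 was a Cre- animal of the mutant strain that received 4-OHT. The controls therefore differed from each other in strain and in treatment, as did control 1 from the mutants, and a further control mouse was not analysed here. The 9 plates of 384 wells comprised 7 from mutants (2 each from mutants 3 and 5) and 2 from controls. Plates of mutants 1 to 4 carried identifiers of one number series and those of mutant 5 and both controls of another, so that series and genotype cannot be fully told apart.

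The labels call all sorted cells LECs, whereas the methods of the paper describe sorting of both LECs and BECs. Of the 3248 cells that passed the filters, 1542 fell in the BEC gate. LECs (1641 cells, 175–367 per mouse) had at least 300 CPM (counts scaled to the total reads) of *Prox1*, *Flt4* and *Mmrn1* together and more than of *Flt1*, *Emcn* and *Podxl*, and BECs (163–340 per mouse) had the larger sum for the second trio. Of these LECs, 1048 also had at least 300 CPM of the BEC trio, and 153 of the BECs had that much of the LEC trio. The gates are thus cuts on the larger sum and kept cells with reads of both trios. Valve LECs (231 cells, 19–57 per mouse) were LECs with at least 300 CPM of *Cldn11*, and 65 cells were in neither gate. The summed level of 7 LEC markers was 7205–10848 CPM in LECs and 152–679 CPM in BECs, and that of 6 BEC markers was 1432–1807 and 6720–8429 CPM. Reads of the cells of 1 mouse were summed, giving 55616045–194353210 reads per mouse in LECs, 39610940–102714572 in BECs and 5906709–21490524 in valve LECs. Levels below are CPM of these plain sums. Fold changes come from edgeR fits on TMM-scaled sums and have an SE taken from the F statistic, and calls required an adjusted p under 0.05 (quasi-likelihood test, Benjamini-Hochberg over all genes tested).

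Markers of other cell types differed between the genotypes. The summed level of 5 fibroblast markers was 570–769 CPM in control and 12.8–53.8 CPM in mutant BECs, with 4 of the 5 lower in all mutants than in both controls. In LECs the same sum was 193–382 CPM in controls and 15.8–106 CPM in mutants. The 6 capillary BEC markers in LECs summed to 791–1184 CPM in controls and 307–391 CPM in mutants, and their part in the LEC genotype values of genes that are higher in BECs was not tested. The 5 mural markers summed to 345–636 CPM in control and 33.9–335 CPM in mutant BECs, with 2 of the 5 lower in all mutants, and keratinocyte markers to 584–636 and 13.2–1085 CPM. In LECs the mural sum was 91.4–118 CPM in controls and 32.5–59.8 CPM in mutants, again with 2 of the 5 lower in all mutants. Of the 5 Schwann cell markers, 3 were lower in all mutant LECs, although their sums overlapped. Immune markers stayed at 1.33–26.5 CPM and Schwann cell markers at 3.50–143 CPM in LECs and BECs, while the 4 pan-endothelial markers summed to 4206–5677 CPM. None of the fibroblast, mural or keratinocyte markers was at 0 in all mutants. The genotypes also differed in cell states: cells with at least 3 of 7 cycling genes were 0.546% and 1.71% of control LECs against 9.34–23.4% of mutant LECs, and 0% of control BECs against 2.14–17.1% of mutant BECs. What these differences contribute to the comparisons of genotypes was not tested, beyond repeating the fits on subsets of cells as given below.

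Promoter sequences are shown for *Id3* and *Smad6* because the first is the target gene with the smallest adjusted p between LECs and BECs and the second the inhibitor that was nearly silent in LECs. RefSeq starts of build GRCm38.p6 were available for 6 of the 10 genes (*Bmp4*, *Bmp6*, *Gdf10*, *Smad6*, *Id3* and *Eng*), and each sequence runs from 250 bases before to 50 bases after the start. Capitals mark matches, on either strand, to GGCGNC or GACGNC, letters of GC-rich SMAD elements, and to GTCTAGAC, a palindrome bound by SMAD3 and SMAD4. The *Id3* promoter (chr4:136143572-136143871, plus strand) is followed by that of *Smad6* (chr9:64022010-64022309, minus strand).
Id3: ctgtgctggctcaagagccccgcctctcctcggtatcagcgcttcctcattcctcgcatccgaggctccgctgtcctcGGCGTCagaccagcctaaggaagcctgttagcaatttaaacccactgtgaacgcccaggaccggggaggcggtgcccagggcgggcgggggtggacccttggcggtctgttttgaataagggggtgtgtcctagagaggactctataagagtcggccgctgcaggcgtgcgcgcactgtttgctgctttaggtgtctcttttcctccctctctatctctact
Smad6: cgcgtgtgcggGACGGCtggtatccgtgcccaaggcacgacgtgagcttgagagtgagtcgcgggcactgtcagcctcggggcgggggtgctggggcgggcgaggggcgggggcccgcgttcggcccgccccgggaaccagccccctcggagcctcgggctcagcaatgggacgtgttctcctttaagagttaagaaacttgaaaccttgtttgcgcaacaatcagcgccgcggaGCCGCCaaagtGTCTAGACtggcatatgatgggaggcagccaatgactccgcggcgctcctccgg
In *Id3* a single stretch matched both GGCGNC and GACGNC, beginning 172 bases before the start. *Smad6* had GACGNC at -239, GGCGNC at -15 and GTCTAGAC at -4, running across the start. Of 32851 promoters of this length, 36.2% held GGCGNC, 22.4% GACGNC and 0.213% (70 promoters) GTCTAGAC. *Bmp6* held 3 and 4 matches to the first 2 motifs, *Gdf10* 3 to GGCGNC alone, and *Bmp4* and *Eng* none. These are letter matches and carry no measurement of binding.

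The genes differed widely in level, compared here as CPM per kilobase of summed exon length (mean ± SD over 7 mice). In LECs *Eng* was highest at 217 ± 26.6, followed by *Id3* at 121 ± 36.1 and *Id1* at 79.9 ± 16.7, whose spreads overlapped. *Gdf10* at 39.7 ± 26.1 and *Acvrl1* at 37.6 ± 9.03 did not differ beyond their spread, and *Bmp4* stood at 13.1 ± 8.22 and *Bmp6* at 2.71 ± 1.58. *Bmp2*, *Smad7* and *Smad6* were close to absent, at 0.242 ± 0.303, 0.165 ± 0.170 and 0.0196 ± 0.0254. BECs kept the order *Eng* (615 ± 82.9), *Id3* (361 ± 87.7), *Id1* (295 ± 157), *Acvrl1* (68.8 ± 9.43) and *Bmp4* (43.7 ± 16.1), with overlap of *Id3* and *Id1* and, barely, of *Acvrl1* and *Bmp4*. The remaining 5 genes, *Smad7*, *Bmp6*, *Gdf10*, *Bmp2* and *Smad6*, lay between 2.59 and 5.09 with overlapping spreads. Valve LECs alone placed *Gdf10* first, at 200 ± 128 beside 185 ± 32.7 for *Eng*, 2 values that did not differ beyond their spread.

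Shares of cells with a read were taken after thinning each cell to 50000 reads. *Eng* had a read in 95.7–100% of LECs and 97.6–100% of BECs of each mouse. The range for *Id3* was 51.9–85.2% of LECs and 85.6–97.5% of BECs, for *Id1* 28.9–60.1% and 63.0–90.8%, and for *Acvrl1* 36.0–66.8% and 59.9–76.7%. *Bmp4* had a read in only 7.90–20.1% of LECs and 10.98–40.6% of BECs, and *Smad7* in 0–4.37% and 8.53–19.0%. Reads are not independent molecules here, so these shares cover detection at this depth only.

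**Figure D1:**
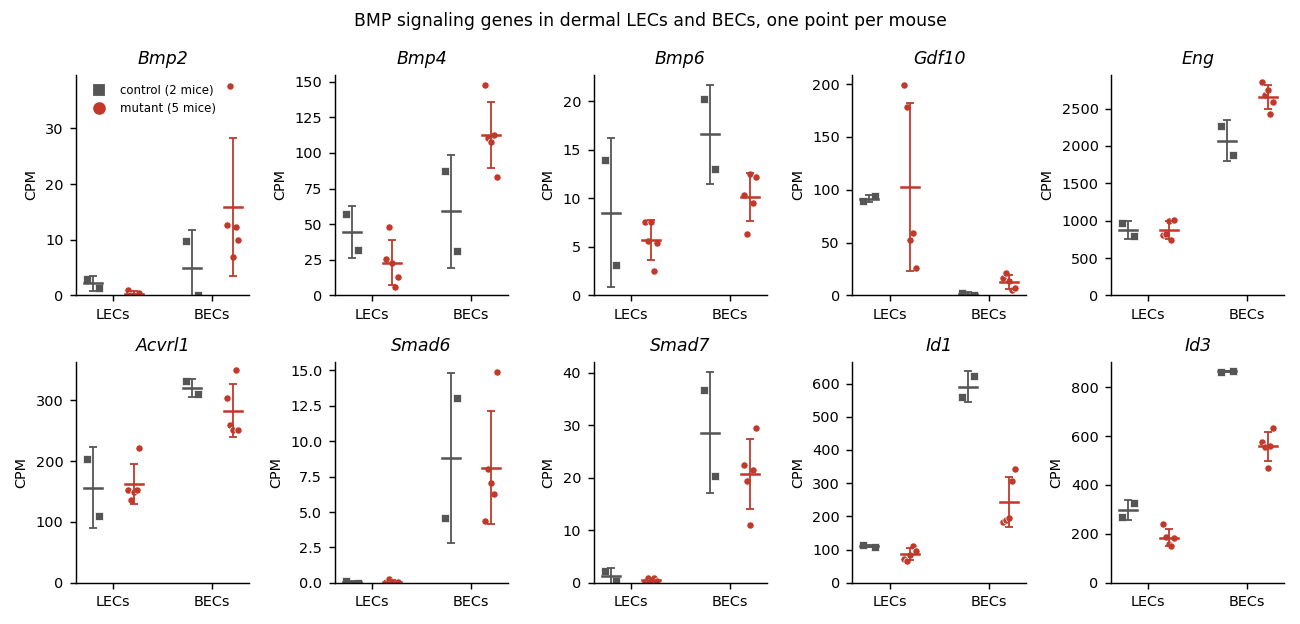
Level in CPM (linear axes from 0, a separate scale per gene) of the 10 genes in LECs and BECs, with 1 point per mouse, squares for the 2 controls and circles for the 5 mutants, a horizontal line at the group mean and bars of ± 1 SD. *Id1* and *Id3* in BECs sit below both controls in all 5 mutants, *Eng* and *Gdf10* above, and 9 genes are lower in LECs than in BECs on average while *Gdf10* is higher.

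LECs and BECs of the same mice differed for 9 of the 10 genes. Among all 22000 genes tested, 22.0% were called in this comparison, 11.9% as higher in LECs and 10.2% as higher in BECs. *Gdf10* was the 1 gene called higher in LECs, and *Bmp4*, *Bmp6*, *Eng*, *Acvrl1*, *Smad6*, *Smad7*, *Id1* and *Id3* were called higher in BECs. *Bmp2*, with 0–37.7 CPM in BECs and 0.04997–3.04 CPM in LECs, was not called (log2 difference -4.60 ± 1.73 SE, adjusted p = 0.0954 in edgeR). Its call depended on the setting: edgeR called it lower in LECs after thinning each cell to equal reads (adjusted p = 0.00759), in the strict and clean gates described below (0.00948 and 0.00996), without control 2 (0.0101) and without the mouse as a block (0.0206), and DESeq2 called it as well. Between LECs and BECs DESeq2 called 6848 of 32665 genes with a read.

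Both receptors were lower in LECs in 7 of 7 mice. *Eng*, the co-receptor endoglin, was at 963 and 791 CPM in control LECs and 815, 822, 992, 747 and 1010 CPM in mutant LECs, against 2270 and 1874 CPM and 2850, 2684, 2748, 2423 and 2587 CPM in BECs. The 2 cell types did not overlap (2.80-fold lower in LECs, log2 difference -1.48 ± 0.09, adjusted p = 1.13e-05 in edgeR). Of all genes tested, 8.94% had no overlap between LECs and BECs in either direction. *Acvrl1*, which encodes ALK1, was at 109–221 CPM in LECs and 251–350 CPM in BECs, again without overlap (1.84-fold lower, -0.88 ± 0.15, adjusted p = 0.00247).

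Both target genes were also lower in LECs. *Id1* was at 113 and 108 CPM in control LECs and 72.0, 66.0, 82.4, 112 and 96.1 CPM in mutant LECs. In BECs it was at 559 and 623 CPM in controls and 183, 188, 195, 306 and 344 CPM in mutants. Every BEC sum was above every LEC sum (3.31-fold, log2 difference -1.73 ± 0.17, adjusted p = 1.03e-04 in edgeR). Such a separation, in either direction, was shown by 8.94% of all genes tested. *Id3* was 2.97-fold lower in LECs (-1.57 ± 0.08, adjusted p = 4.76e-06), at 151–328 CPM against 468–867 CPM. The inhibitory SMADs were scarce in LECs: *Smad7* had 0.108–2.32 CPM in LECs and 11.04–36.7 CPM in BECs (-5.40 ± 0.53, adjusted p = 1.23e-04), and *Smad6* 0–0.234 CPM in LECs (0–13 reads per mouse) and 4.39–14.9 CPM in BECs (-7.48 ± 0.92, adjusted p = 4.40e-04). Where *Smad6* had 0 LEC reads, in control 2 and mutant 4, the limit set by 3 reads was 0.0490 and 0.0510 CPM.

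The ligands divided between the cell types. *Bmp4*, a ligand of the BMP2/4 subgroup, was at 57.4 and 31.7 CPM in control LECs and 25.4, 47.8, 22.7, 6.26 and 12.7 CPM in mutant LECs. BEC levels were 87.2 and 31.1 CPM in controls and 148, 110, 108, 112 and 83.4 CPM in mutants, so the cell types overlapped through control 2, where *Bmp4* was slightly higher in LECs. It was lower in LECs in 6 of 7 mice (3.72-fold, -1.89 ± 0.49, adjusted p = 0.0230 in edgeR). *Bmp6*, known as a regulator of iron balance from liver endothelium, was at 2.53–14.0 CPM in LECs and 6.37–20.2 CPM in BECs and was lower in LECs in 7 of 7 mice (-0.98 ± 0.30, adjusted p = 0.0461). Neither call was stable: on a clean gate of cells under 100 CPM for each list of markers of other cell types, *Bmp4* gave -1.29 ± 1.05 (adjusted p = 0.499) and *Bmp6* -0.54 ± 0.60 (adjusted p = 0.632). Leaving out mutant 1, 3 or 5 also ended the *Bmp4* call (adjusted p = 0.0579–0.0635), and the *Bmp6* call was lost without any one of the mice except mutant 2 (adjusted p = 0.0541–0.105). On a strict gate of LECs under 100 CPM for the BEC trio and BECs under 100 CPM for the LEC trio, with their own trio at 300 CPM or more and above each marker list of other cell types, the *Bmp4* difference was larger, at -4.14 ± 0.78 (adjusted p = 0.00504), and that of *Bmp6* was -4.07 ± 1.43 and missed the threshold (adjusted p = 0.0906). *Gdf10*, a divergent ligand also called BMP3B, ran the other way, at 25.5–199 CPM in LECs and 0.839–21.1 CPM in BECs (12.1-fold higher, 3.59 ± 0.60, adjusted p = 0.00262, 7 of 7 mice), and gave 6.05 ± 1.10 on the strict gate (adjusted p = 0.00411). These LEC sums include valve LECs, which had far more *Gdf10* than the other LECs, as given below. In mutant 5 the LECs outside valves had less *Gdf10* than the BECs, so the count of 7 of 7 mice depends on valve LECs. LECs outside valves were not tested against BECs.

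The pathway around these genes, from lists chosen with earlier results known, showed both directions between LECs and BECs. Of the 10 other receptors and co-receptors tested, 2 were called higher in LECs and 5 lower. *Rgma* (3.03 ± 0.82) and *Neo1* (1.38 ± 0.25), a BMP co-receptor and the receptor it binds, were higher, and *Tgfbr3* (-1.43 ± 0.16) and *Rgmb* (-1.12 ± 0.12) were lower. *Neo1* was at 139–294 CPM in valve LECs, while the other LECs (17.9–54.6 CPM) overlapped with BECs (10.5–40.4 CPM). Among 9 SMADs and regulators, *Smad1* (1.501 ± 0.10) and *Ski* (0.52 ± 0.10), a nuclear repressor of SMADs, were higher in LECs and *Smad9*, at 0.0360–3.38 CPM, was lower. Of 13 other BMP targets, *Cdkn1a* was higher (0.63 ± 0.19) and 5 were lower, *Atoh8* (-6.07 ± 1.33), *Msx1* (-5.15 ± 0.79) and *Hey1* (-0.77 ± 0.23) among them. *Gdf15* (3.67 ± 0.57) was the 1 of 9 other ligands called. Of 13 secreted antagonists, *Twsg1* (1.32 ± 0.14) and *Nbl1* (1.29 ± 0.27) were higher and *Crim1* (-0.70 ± 0.17) was lower. The TGF-beta branch had 6 of 14 genes higher in LECs, with *Tgfb3* (3.48 ± 0.25), *Tgfbi* (2.50 ± 0.24) and *Tgfb2* (1.76 ± 0.23) among them, and *Ccn2* lower (-1.54 ± 0.18). Median log2 differences were -0.63 for the other receptors, -0.71 for the other targets and 0.40 for the TGF-beta branch, beside 0.0181 over all genes tested.

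Between valve and other LECs, *Gdf10* alone among the 10 genes was called by edgeR. It was at 409 and 626 CPM in valve LECs of controls and 687, 1082, 182, 332 and 197 CPM in those of mutants. The other LECs of the same mice had 44.0 and 37.1 CPM in controls and 54.9, 34.4, 23.7, 26.7 and 5.58 CPM in mutants. All valve sums were above all others (16.0-fold, 4.00 ± 0.28, adjusted p = 3.97e-04 in edgeR, 7 of 7 mice), in a comparison that called 1.45% of 19431 genes and 1 of the 9 genes of the group that could be tested. Valve and other LECs did not overlap, in either direction, for 0.978% of all genes tested. A *Gdf10* read was present in 25.0–73.7% of valve LECs after thinning. On the clean gate, which left 6 mice, the difference was 4.31 ± 0.69 and narrowly missed the threshold (adjusted p = 0.0515).

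The other genes were not called between valve and other LECs. *Eng* was lower in valve LECs in 7 of 7 mice, at 560–903 against 769–1022 CPM, but by a small amount (-0.21 ± 0.07, adjusted p = 0.172), and its direction turned (0.15) in the strict gate. *Bmp4* was lower in 6 of 7 mice, at 0.339–30.2 CPM against 6.53–65.3 CPM, with mutant 3 as the exception (-2.57 ± 1.09, adjusted p = 0.275, called lower with DESeq2). *Bmp6* had 0 reads in the valve LECs of control 2, mutant 2 and mutant 4 (-3.31 ± 1.49, adjusted p = 0.305) and was called lower with DESeq2 alone. In this comparison DESeq2 called 2194 of 30431 genes with a read. *Id1* (-0.28 ± 0.21, adjusted p = 0.592), *Id3* (0.02 ± 0.18, adjusted p = 0.978) and *Acvrl1* (-0.28 ± 0.22, adjusted p = 0.587) had overlapping levels. *Bmp2* gave -2.94 ± 1.23 (unadjusted p = 0.0369, adjusted p = 0.266) and *Smad7* -0.89 ± 1.42 (adjusted p = 0.822), and *Smad6* was too low to be tested. The median over all genes was -0.32 in this fit, 0.11 with DESeq2 and 0.040 without the mouse as a block. Of the wider pathway *Neo1*, which also stands in the list of valve markers, was called higher in valve LECs, at 139–294 against 17.9–54.6 CPM (2.99 ± 0.28, adjusted p = 0.00117).

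**Figure D2:**
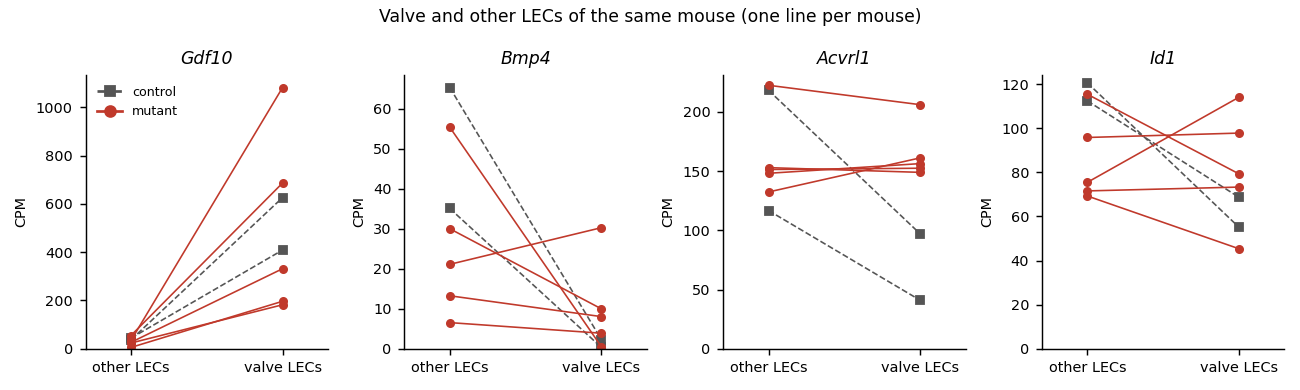
Level in CPM (linear axes from 0) of *Gdf10*, *Bmp4*, *Acvrl1* and *Id1* in the other LECs and the valve LECs, with 1 line per mouse, squares and dashed lines for the 2 controls and circles for the 5 mutants. Every line rises for *Gdf10*, all but 1 fall for *Bmp4*, and for *Acvrl1* and *Id1* both controls fall while the mutants differ in direction.

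Between mutant and control mice, none of the 10 genes was called in BECs by edgeR, where 1.87% of 19478 genes were called (364 genes) and 3738 had an unadjusted p under 0.05, 5 of the 10 members among them. *Id1* and *Id3* came closest, and both were lower in all 5 mutants than in both controls. *Id1* was at 559 and 623 CPM in controls and 183–344 CPM in mutants (2.34-fold lower, -1.23 ± 0.25, unadjusted p = 0.00109, adjusted p = 0.0535). *Id3* was at 863 and 867 CPM in controls and 577, 555, 468, 561 and 631 CPM in mutants (1.49-fold lower, -0.57 ± 0.13, adjusted p = 0.0667). With *Bmp6* these were the 3 of 10 genes with all mutants below both controls, which 12.6% of all genes showed, and *Eng* and *Gdf10* were the 2 of 10 with all mutants above, which 12.2% showed.

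Whether *Id1* and *Id3* passed the threshold in BECs rested on the method and on 1 mouse. Without mutant 5, which had the highest level of both among the mutants, *Id1* gave -1.38 ± 0.22 (adjusted p = 0.0301) and *Id3* -0.62 ± 0.12 (adjusted p = 0.0482). Mutant 5 was also the only mutant in the plate series of the controls. Without it genotype and series coincide, so these values cannot be told from a difference between series. DESeq2 called both lower, with adjusted p = 8.64e-04 and 8.36e-04, in a fit that called 2707 of 30534 genes with a read. On the clean gate *Id1* gave -1.44 ± 0.25 and was called (adjusted p = 0.0319). Over 20 alternative settings the log2 difference ranged from -1.58 to -0.53 for *Id1* and from -0.83 to -0.27 for *Id3*, always lower in mutants, with adjusted p of 8.64e-04 to 0.815 and 8.36e-04 to 0.893. With the plate series as a block *Id1* gave -0.74 and was not called, a value set by mutant 5 alone against both controls.

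The mix of BECs also differed between genotypes. Cells were put into an arterial, a venous and a capillary range by their highest marker score, and 35 of 327 control BECs against 498 of 1215 mutant BECs were in the venous range, with 154 and 260 in the capillary range. *Id1* differed by range: both genotypes had less in venous cells, at 265 and 320 CPM in controls and 123, 158, 131, 171 and 277 CPM in mutants. Arterial cells had 550 and 612 CPM in controls and 263, 300, 270, 360 and 406 CPM in mutants. Capillary cells had 598 and 647 CPM in controls and 331, 296, 339, 591 and 465 CPM in mutants. All mutants were below both controls in the arterial and capillary ranges, and mutant 5 was between the controls in the venous range. Over all BECs 12.6% of genes had all mutants below both controls, and the share within a range was not counted. Within ranges the differences were -0.84 ± 0.23 in arterial, -0.82 ± 0.30 in venous and -0.53 ± 0.27 in capillary cells, smaller than the -1.23 over all BECs and not called (adjusted p = 0.435, 0.139 and 0.815).

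*Id3* showed less contrast between ranges. Arterial cells had 900 and 877 CPM in controls and 447–641 CPM in mutants, capillary cells 953 and 902 against 627–884 CPM, and venous cells 670 and 815 against 428–634 CPM. All mutants were below both controls in each of the 3 ranges, by log2 differences of -0.77, -0.27 and -0.48, of which none was called. The share of all genes with this order was not counted within ranges, and was 12.6% over all BECs. *Eng* was highest in the venous range of every mouse, at 2802–3802 CPM, against 1921–2701 CPM in capillary and 1078–1672 CPM in arterial cells. Mutant and control mice overlapped within each range. *Bmp4* was likewise highest in venous cells, at 130–275 CPM, against 8.21–77.3 CPM in arterial and 7.13–35.4 CPM in capillary cells, and overlapped between genotypes in all 3. These ranges hold 12–150 cells per mouse and are cuts of a score, not cell types.

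**Figure D3:**
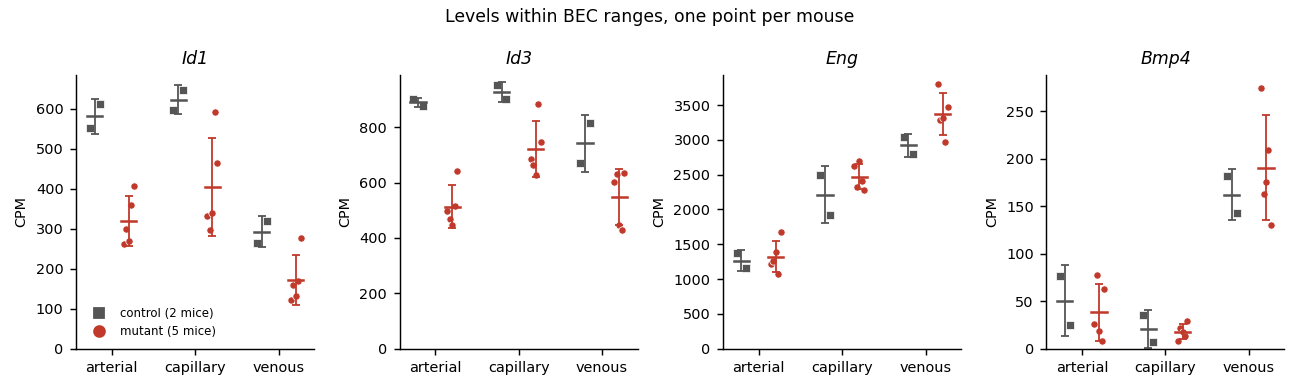
Level in CPM (linear axes from 0) of *Id1*, *Id3*, *Eng* and *Bmp4* in the arterial, capillary and venous range of BECs, with 1 point per mouse, squares for the 2 controls and circles for the 5 mutants, a line at the group mean and bars of ± 1 SD. *Id1* and *Id3* are lower in mutants in most ranges, whereas *Eng* and *Bmp4* overlap between genotypes within each range and are highest in venous cells.

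The remaining BEC differences were not called by edgeR either. *Eng* was higher in mutants over all BECs (0.42 ± 0.13, adjusted p = 0.134), at the levels given above, and DESeq2 called it higher (adjusted p = 0.0372). *Gdf10* was at 2.47 and 0.839 CPM in controls and 16.8, 21.1, 13.4, 5.18 and 6.99 CPM in mutants (8.02-fold higher, 3.00 ± 0.81, adjusted p = 0.105, called higher with DESeq2). Of the 3 ranges, arterial cells had the highest *Gdf10* level in all 5 mutants, at 62.0, 215, 98.8, 3.55 and 27.4 CPM in 17–69 cells per mouse, beside 2.38 and 1.07 CPM in controls. This order leaves out the 277 mutant BECs assigned to no range. In mutant 4 the arterial level was below the 5.18 CPM over all its BECs. *Bmp4* gave 0.98 ± 0.40 (adjusted p = 0.230), a direction that turned within arterial (-0.38) and capillary (-0.19) cells. *Bmp6* was at 20.2 and 13.01 CPM in controls and 6.37–12.5 CPM in mutants (-0.65 ± 0.38, adjusted p = 0.379). *Bmp2* (1.76 ± 1.55), *Smad6* (-0.05 ± 0.60), *Smad7* (-0.41 ± 0.39) and *Acvrl1* (-0.12 ± 0.16) overlapped between genotypes, with adjusted p of 0.569 to 0.975. *Bmp2* had no read in BECs of control 2, where 3 reads would be 0.0700 CPM.

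In LECs none of the 9 genes tested was called between genotypes by edgeR, where 2.76% of 19758 genes were called (546 genes) and 3963 had an unadjusted p under 0.05, 1 of them a member (*Id3*). *Id3* was the nearest, at 270 and 328 CPM in controls and 239, 189, 160, 151 and 183 CPM in mutants, without overlap (1.57-fold lower, -0.65 ± 0.17, adjusted p = 0.0851). DESeq2, which called 2997 of 30431 genes with a read in LECs, called *Id3* lower (adjusted p = 0.0148). In the strict gate, which kept 294 LECs, the *Id3* value was 0.024 ± 0.25 (adjusted p = 0.977 in edgeR). *Id3* and *Bmp2* were the 2 genes with all mutants below both controls, which 12.7% of genes showed, and no gene of the group had all mutants above, which 12.5% showed. *Id1* overlapped between genotypes (-0.32 ± 0.22, adjusted p = 0.458) and turned direction in the strict gate (0.28).

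The ligands, receptors and inhibitors of LECs overlapped between genotypes or were scarce. *Bmp2* was at 3.04 and 1.26 CPM in controls and 0.04997–1.05 CPM in mutants (-2.64 ± 1.16, adjusted p = 0.253). *Bmp4* gave -0.92 ± 0.64 (adjusted p = 0.454). It was split by *Ptx3*, a marker of a capillary LEC state. Cells with more than 1 *Ptx3* read after thinning counted as positive, which held for 8.20% and 28.0% of control LECs and 35.8–53.7% of mutant LECs. In *Ptx3*-positive LECs *Bmp4* was at 57.7 and 22.2 CPM in controls and 6.32, 2.67, 8.96, 0.561 and 4.39 CPM in mutants, a difference that was not called (-3.16 ± 0.84, adjusted p = 0.0683) and in which control 1 has only 15 cells. *Ptx3*-negative LECs outside valves had 65.8 and 40.9 CPM in controls and 51.4, 90.8, 31.3, 13.4 and 27.2 CPM in mutants (-0.29 ± 0.62, adjusted p = 0.887). These subsets were chosen after seeing the data. *Gdf10* (0.20 ± 0.71), *Bmp6* (-0.56 ± 0.64), *Eng* (0.04 ± 0.16), *Acvrl1* (0.09 ± 0.28) and *Smad7* (-1.26 ± 1.07) gave adjusted p of 0.551 to 0.918. *Smad6* was too low to be tested in LECs.

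**Figure D4:**
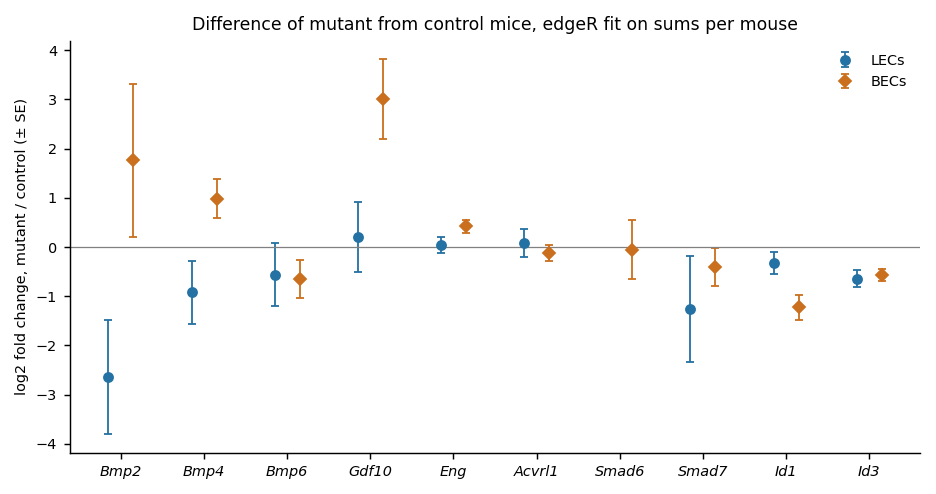
Log2 fold change of mutant against control mice with ± SE from the edgeR fit (linear axis in log2 units, 0 means no difference), circles for LECs and diamonds for BECs; *Smad6* has no LEC value because it was too low to be tested. *Id1* is lower by -1.23 in BECs and -0.32 in LECs, and *Id3* by -0.57 and -0.65.

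Tested as a difference of the 2 genotype effects within mice, none of the 10 genes was called by edgeR, in a fit that called 0.182% of 22000 genes (40 genes) and had 2484 at an unadjusted p under 0.05, 5 of them members. For *Id1* the difference, LEC minus BEC, was 0.90 ± 0.18 (unadjusted p = 0.00117, adjusted p = 0.128). For *Gdf10* it was -3.18 ± 0.65 (adjusted p = 0.129), for *Bmp4* -2.31 ± 0.67 (adjusted p = 0.2498) and for *Bmp2* -7.64 ± 2.71 (adjusted p = 0.345). DESeq2 called these 4, in a fit that called 1291 of 32665 genes with a read. *Id3* gave -0.11 ± 0.17 (adjusted p = 0.917), and *Eng* -0.40 ± 0.15 (adjusted p = 0.354). *Acvrl1* (0.25 ± 0.32), *Bmp6* (0.37 ± 0.68), *Smad7* (-0.45 ± 1.08) and *Smad6* (0.28 ± 1.93) gave adjusted p of 0.873 to 1.

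In valve LECs the sums were shallow, and edgeR called no gene between genotypes (0% of 13948 genes, 0 of the 7 genes of the group tested), although 1760 genes had an unadjusted p under 0.05, 1 of them a member. DESeq2 called 1257 of 24455 genes with a read, none of them in the group. *Acvrl1* was the 1 gene without overlap, at 97.1 and 41.0 CPM in controls and 153, 161, 156, 149 and 206 CPM in mutants (1.19 ± 0.40, adjusted p = 0.312), where 17.6% of all genes did not overlap. The size of this difference depended on the controls, with 2.04 (adjusted p = 0.0745) without control 1 and 0.67 (adjusted p = 0.417) without control 2. *Gdf10* (-0.08 ± 0.63), *Id1* (0.37 ± 0.45), *Id3* (-0.56 ± 0.31) and *Eng* (0.17 ± 0.23) overlapped, as did *Bmp4* (2.90 ± 1.73, adjusted p = 0.492) and *Bmp6* (-1.98 ± 2.24, adjusted p = 0.755). *Bmp2*, *Smad6* and *Smad7* were too low to be tested in valve LECs between genotypes.

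Few other pathway genes were called between genotypes. In BECs *Fstl1*, a secreted glycoprotein of the follistatin family, was at 391–395 CPM in controls and 1190–1532 CPM in mutants (1.85 ± 0.15, adjusted p = 0.00375 in edgeR), and *Smad3*, a SMAD of the TGF-beta branch, at 16.5–25.2 and 43.8–61.6 CPM (1.42 ± 0.27, adjusted p = 0.0442). LECs also had more *Fstl1* in mutants, at 1078–1382 against 713–920 CPM (0.65 ± 0.14, adjusted p = 0.0496), and the difference between the effects was called (-1.21 ± 0.14, adjusted p = 0.0312). *Id2*, a further ID gene, fell in mutant LECs, from 108–188 to 30.3–64.1 CPM (-1.60 ± 0.30, adjusted p = 0.0349). These were 1 of 12 other BMP targets and 1 of 10 antagonists tested in LECs, and 1 of 10 antagonists and 1 of 14 TGF-beta genes in BECs. No other ligand, receptor, SMAD or regulator was called in either cell type. Values under other settings were kept for the 10 members alone. How the calls of *Fstl1*, *Smad3* and *Id2* depend on the settings or on single mice is therefore not given. Median log2 differences were -1.30 for the other targets in LECs and -0.13 in BECs, beside -0.0073 and 0.011 over all genes tested. Mean LEC levels of the other listed targets ran from 0.260 to 202 CPM. Several of them lay near the floor, so the LEC median rests partly on few reads and is not a measure of the targets as a set.

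Across the 21 sums of valve LECs, other LECs and BECs, the genes most like *Id1* by Pearson's r of log2(CPM + 1) were *Mcf2l* (0.910), *Dnm3* (0.900) and *Arl6ip5* (0.898). Those most like *Bmp4* were *Prex1* (0.919), *Clec14a* (0.919) and *Fads1* (0.901), and those most like *Eng* were *Selp* (0.972), *Adgrg1* (0.969) and *Csf2rb* (0.969). Within the group, r was 0.875 for *Id1* with *Id3*, 0.836 for *Id3* with *Eng*, 0.808 for *Id1* with *Eng* and -0.819 for *Id1* with *Gdf10*. The sums come in trios from 7 mice and fall into 3 cell classes, and they share libraries and depth. *Mcf2l* was at 68.1–322 CPM in BECs and 0.324–11.9 CPM in valve and other LECs, and *Selp*, which also stands in the venous list, at 98.3–720 and 0.846–8.23 CPM.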

How the data were processed

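Single cells sorted from ear skin were sequenced by Smart-seq2. Per the methods and the labels, the authors aligned reads to mouse GRCm38 and the chicken *PIK3CA* sequence with TopHat2 2.1.1, removed duplicates with SAMtools 0.1.18 and counted reads per gene with featureCounts (Subread); the submitters' notes also name R 3.5.1 and Seurat 3.1.1. The annotation version is not given in the sources used here. The deposited files hold raw counts per gene and well for 9 plates (99738900–151103000 reads each), unfiltered, with summed exon lengths. The tables hold 46517 Ensembl genes and 92 spike-ins, which were left out of library sizes. GENCODE vM21 gave symbols for 46005 genes (98.9%).

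The study's cell limits (200 genes or more, no fewer than 50000 reads, mitochondrial share up to 10%) kept 3248 of 3456 wells, with a median of 295698 reads. Counts were summed per mouse and gate, plates of a mouse together, with at least 5 cells. Tests were edgeR 4.0.16 quasi-likelihood F tests (filterByExpr, TMM) in R 4.3.3, with mouse as a block between cell types, and were tested on simulated data. DESeq2 1.42.0 served as an alternative. Other steps used Python 3.11.15, NumPy 2.4.6 and pandas 2.3.3. No doublet caller was run. Ranges of BECs follow the highest mean z score of arterial, venous and capillary markers, 0.25 above the next. Thinned shares use 50000 reads per cell. The strict gate asked for under 100 CPM of the other trio, and the clean gate for under 100 CPM of each list of other cell types. Wells of 1 plate share preparation, and nothing says that mice of a group were handled apart. The p-values set each difference against a spread estimated from these mice, with only 2 controls between genotypes. Mixed sexes were not modelled.

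The members and lists were chosen with earlier results of these data known. Named genes are the 10 members in every comparison and, per list, up to 4 called pathway genes by size of change, if their average log2 CPM was 1 or more, and the 3 genes most correlated with *Id1*, *Bmp4* and *Eng* among those with an average log2 CPM of 3 or more. *Smad9* was named outside this rule after its values were seen.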

Additional observations from a re-analysis of the deposited data

Results flagged for a closer look

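Each gene was examined for single mutant mice far from the other 4, by the gap to the nearest mouse over the range of the 5. Chance flags about 1 in 20 groups, and 40 values were examined. *Bmp2* in BECs was high in mutant 2, at 37.7 CPM against 6.94–12.6 CPM in the other mutants. *Acvrl1* was high in mutant 5, at 221 CPM in LECs against 136–153 CPM, and likewise at 206 CPM in valve LECs and 222 CPM in other LECs. The 3 values share cells and are not separate flags. *Bmp6* in valve LECs was high in mutant 3, at 11.5 CPM against 0–2.44 CPM, as was *Smad7*, at 1.21 CPM against 0–0.246 CPM. *Smad6* was high in mutant 2, at 0.234 CPM in LECs and 0.271 CPM in other LECs, which is 13 reads in all LECs of that mouse.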

How the results depend on the processing

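Of the 10 member differences called in the main fits, 64 of 70 values under other settings and 61 of 70 with a mouse left out kept direction and call, and none reversed. Weaker ones were *Bmp4* and *Bmp6* between LECs and BECs and *Gdf10* in valves on the clean gate. Of 457 and 315 values for differences not called, 56 and 27 reversed and 20 and 3 passed the threshold. The clean gate and the BEC and *Ptx3* subsets were chosen after seeing the data. The levels of *Bmp6* in BECs moved to 16.4 CPM after thinning and 6.92 CPM with the strict gate, and that of *Bmp4* in LECs to 8.40 CPM with the strict gate.

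Genes called changed as follows. DESeq2 called 2997 of 30431 genes with a read in LECs, 2707 of 30534 in BECs and 1291 of 32665 for the difference of effects. In valve against other LECs it called 2194 of 30431, and in valve LECs between genotypes 1257 of 24455. These held 1, 4, 4, 3 and 0 members, in that order. The strict gate gave 181 in LECs, 2638 between LECs and BECs and 12 in valve against other LECs, and the clean gate 77 for the difference, 3174, 47 (0 members) and 166 in valve LECs. BECs had 1 member called with DESeq2 size factors, the strict gate, the clean gate and first plates. Without cycling cells 104 were called in LECs and 26 for the difference. The plate series as a block left 160 genes in LECs and 37 in BECs. *Ptx3*-negative LECs gave 1, arterial BECs 4, venous BECs 1065 and capillary BECs 1. Thinning gave 181 in valve against other LECs and 1 in valve LECs between genotypes, and dropping the mouse block gave 145. The share of higher calls, 70.9% in LECs and 72.8% in BECs in the main fits, was larger in both with the plate series as a block.

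Leaving out 1 mouse gave 153–546 genes in LECs, 127–534 in BECs (0–2 members), 0–20 for the difference, 3678–4523 between LECs and BECs (7–9 members), 71–148 in valve against other LECs and 0 in valve LECs between genotypes. The fewest in LECs and BECs came without mutant 3. Ranges that crossed 0 were, in LECs, *Gdf10* -0.17 to 0.45, *Eng* -0.13 to 0.27, *Acvrl1* -0.33 to 0.68, *Bmp6* -1.28 to 1.00 and *Smad7* -2.12 to 1.23. In BECs they were *Smad6* -0.58 to 0.90 and *Smad7* -0.76 to 0.12. For the difference they were *Acvrl1* -0.19 to 0.71, *Bmp6* -0.44 to 1.20, *Smad6* -1.84 to 5.55 and *Smad7* -1.62 to 0.87. In valve LECs between genotypes they were *Bmp6* -4.08 to 8.21, *Eng* -0.011 to 0.40 and *Gdf10* -0.60 to 0.19, and in valve against other LECs *Id3* -0.11 to 0.15.

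Log2 differences that reversed were, after thinning, *Acvrl1* in LECs -0.062, *Bmp6* in BECs 0.036, *Bmp6* and *Smad7* for the difference -0.042 and 0.011, *Id3* in valve against other LECs -0.018 (-0.026 without a filter), and *Gdf10* and *Id1* in valve LECs 0.29 and -0.061. With the strict gate these were *Id1* and *Id3* in LECs 0.28 and 0.024, *Smad6* in BECs 0.014, *Bmp6*, *Smad6* and *Id3* for the difference -1.59, -3.49 and 0.87, *Id3* and *Eng* in valve against other LECs -0.25 and 0.15, and *Gdf10* in valve LECs 0.35. With the clean gate they were *Bmp6*, *Smad7*, *Eng* and *Acvrl1* in LECs 1.41, 1.10, -0.076 and -0.42, *Smad6* in BECs 0.35, *Smad6* and *Smad7* for the difference -1.82 and 1.41, *Smad7* in valve against other LECs 1.08, and *Bmp6* and *Gdf10* in valve LECs 8.09 and 0.42. First plates turned *Eng* in LECs to -0.048 and *Smad6* in BECs to 0.21, and the plate series *Gdf10* in LECs to -1.79 and *Smad6* and *Smad7* in BECs to 0.80 and 0.092. *Smad6* in BECs was 0.020 without cycling cells, and *Gdf10* and *Acvrl1* in LECs -0.45 and -0.023 without valve LECs. *Ptx3*-positive LECs gave *Bmp6* 0.80 and *Smad7* 2.78, and *Ptx3*-negative ones *Bmp6* 0.014, *Gdf10* -0.13, *Eng* -0.0062 and *Acvrl1* -0.18. Arterial BECs gave *Bmp4* -0.38 and *Acvrl1* 0.13, venous *Bmp6* 2.69 and *Smad7* 2.69, and capillary *Bmp2* -0.70, *Bmp4* -0.19, *Bmp6* 0.49, *Smad6* 1.07, *Smad7* 0.45 and *Acvrl1* 0.37. The cause was not tested for any of these.

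The replicate numbers of the labels name different mice, and same-numbered mice deviated together by correlations of -0.031 and -0.036 in LECs and 0.011 and 0.062 in BECs, so the numbers pair nothing. A fit with the replicate block called 4 genes in LECs, 32 in BECs and 3 in valve LECs and no member in any. It gave *Bmp6* 0.019, *Eng* -0.054 and *Acvrl1* -0.013 in LECs and *Gdf10* 0.69 and *Id1* -0.17 in valve LECs.

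With 2 controls that differ in strain and treatment, the spread within controls is poorly known, and members under 1 CPM rest on few reads.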
